A study of Homo sapiens with 12 samples.

Results

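Isoform usage was examined among curated protein-coding transcripts of PC3 cells, a human prostate cancer cell line, after silver nanoparticles (AgNPs) and a second agent that the labels give only as DOC. Transcript rows with a curated RefSeq coding accession (prefix NM_) were kept when their expected read counts summed to at least 300 over the 12 libraries, and genes were kept when 2 or more of their rows passed. This gave 11528 transcripts in 4204 genes, out of 37359 NM_ rows, 177700 linear transcript rows and 221796 rows in all. The kept genes included 2612 with 2 such transcripts and 922 with 3, and 24 was the largest number in a single gene. A further 6288 genes had 1 NM_ row above the threshold and no usage to measure. For each kept transcript the share was its percentage of the summed kept counts of its gene in the same library, so a share can change only at the cost of another transcript of that gene. The members were chosen by row sums over all libraries, and these sums are a description and no result. The sums were not scaled for depth, so the deeper libraries, those of BLANK most, weighed more in the choice than those of COM. With counts scaled for depth, 115 of the members summed to less than 300. Whether this bears on the direction of the calls below was not tested. Just inside the threshold were rows of STEAP2 (300.12), RHOBTB1 (300.13) and TLE3 (300.26), and just outside were rows of FAAP20 (299.91), ALDH18A1 (299.61) and PNISR (299.55). In 340 of the 11528 transcripts (2.95%) over 50% of the depth-scaled counts came from 1 group.

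All 12 libraries were made from total RNA of PC3 cells of labelled wild-type genotype with an mRNA library kit. The 4 groups of 3 libraries were cells given PBS (BLANK), AgNPs, DOC, or AgNPs together with DOC (COM). No dose, exposure time or batch is stated, and nothing says that the replicates came from separate cultures, so every p-value below measures the spread between these libraries, which may be technical. The comparisons ask which transcripts of a gene were used more or less after each treatment, and whether DOC acted differently in the presence of AgNPs.

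One gene can give several messenger RNAs because transcription can start at different promoters, because exons can be joined in different ways and because the RNA can be cut and polyadenylated at different places. Alternative starts and alternative coding exons can change the N terminus, the location or the activity of the protein, while alternative untranslated leaders can change how well a message is translated. Stress programmes driven by the transcription factors ATF4 (amino acid shortage and endoplasmic reticulum stress) and NRF2 (oxidative and electrophilic stress) are known to act at particular promoters of their target genes.

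The sequences below show the coding bases that set apart transcripts whose shares are described in what follows. Capitals mark coding bases present in the named transcript and absent from the transcript it is compared with, and lower case marks the shared coding bases next to them. The models are those GENCODE release 29 pairs with each RefSeq accession on GRCh38. Their lengths were within 5% of the lengths implied by the deposited values for the IKBKG, PFKFB3 and TXNRD1 pairs, but not for the SHMT2 transcripts. In the pairs of PRDX1, WARS1, ARID5B, ODC1, DDX17 and EIF5A described below 1 model of each was of another length, so start and end distances of these 7 genes are those of the models. The capitals of SHMT2 NM_005412.5 lie on the plus strand at chr12:57229779-57229811 and chr12:57230803-57230832, and the shared bases begin at the start codon of the shorter forms.
SHMT2 NM_005412.5, against NM_001166359.1: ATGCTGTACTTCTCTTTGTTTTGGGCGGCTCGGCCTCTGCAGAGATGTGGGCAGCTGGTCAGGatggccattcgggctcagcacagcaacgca
The capitals of IKBKG NM_001099856.4 lie on the plus strand at chrX:154542264-154542452 and chrX:154551988-154552002.
IKBKG NM_001099856.4, against NM_001099857.2: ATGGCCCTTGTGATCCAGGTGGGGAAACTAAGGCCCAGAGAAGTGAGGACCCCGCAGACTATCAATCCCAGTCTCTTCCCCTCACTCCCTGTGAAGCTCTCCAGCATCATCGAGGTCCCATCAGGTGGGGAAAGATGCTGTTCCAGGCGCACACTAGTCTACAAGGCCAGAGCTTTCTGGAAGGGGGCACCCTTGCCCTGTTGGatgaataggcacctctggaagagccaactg
The first coding exons of PFKFB3 lie on the plus strand at chr10:6144998-6145013 for NM_001145443.2 and at chr10:6203261-6203336 for NM_004566.3, and both are joined to the same next exon.
PFKFB3 NM_001145443.2, against NM_004566.3: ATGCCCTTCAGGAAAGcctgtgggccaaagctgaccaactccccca
PFKFB3 NM_004566.3, against NM_001145443.2: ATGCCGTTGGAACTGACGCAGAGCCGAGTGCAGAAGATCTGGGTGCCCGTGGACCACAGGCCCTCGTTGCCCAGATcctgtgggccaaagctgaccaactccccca
The capitals of TXNRD1 NM_001261445.1 lie on the plus strand in 3 blocks, at chr12:104287428-104287431, chr12:104288931-104289040 and chr12:104311290-104311325.
TXNRD1 NM_001261445.1, against NM_182729.2: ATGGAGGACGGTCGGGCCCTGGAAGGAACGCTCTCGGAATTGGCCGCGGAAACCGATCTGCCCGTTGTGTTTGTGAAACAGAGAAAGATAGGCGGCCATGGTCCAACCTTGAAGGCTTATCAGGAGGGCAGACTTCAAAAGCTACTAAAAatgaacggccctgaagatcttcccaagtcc

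Promoter windows of 250 bases before the start site were taken from RefSeq's table on GRCh38.p14 for 10 genes whose transcripts are described below. The table holds windows for 8 of them, and SHMT2 and PRDX1 had no entry. The windows were searched on both strands for the ATF4-C/EBP composite element, TGATGNAA, and for the core of the antioxidant response element, TGACNNNGC, to which NRF2 binds. The first is in 3.14% of the 35116 windows of the whole table and the second in 10.9%. The following 30-base stretches, read 5′ to 3′ on the strand of the gene, show the matches of ASNS and IKBKG in capitals. A match is a run of letters and no evidence of binding. The ASNS match lies within the GENCODE model of NM_183356.3, which starts at 97872542.
ASNS, minus strand, chr7:97872458-97872487, 68 bases before the start site at 97872408: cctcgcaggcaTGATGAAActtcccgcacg
IKBKG, plus strand, chrX:154542118-154542147, 84 bases before the start site at 154542212: aacatcatcaTGACACAGCaagaatcttat
The IKBKG window is the one next to the first exon of NM_001099856.4, whose model starts at 154542244. One match of TGACNNNGC each was also found in both listed windows of TXNRD1 and in 1 window of WARS1. In all, 16 windows of the 8 genes were searched, with 1 match of TGATGNAA and 4 of TGACNNNGC, and the windows of SLC6A9, GTPBP2, TRIM16 and PFKFB3 held neither.

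Summed expected counts of linear rows ran from 10996446 to 22769479 per library. BLANK libraries were the deepest and COM libraries the shallowest, so depth and group cannot be told apart in the order of the groups. The members took 30.49% to 32.76% of the linear counts, or 3370651 to 7438893 counts per library. KRT8, KRT18, KRT19, EPCAM, HOXB13 and VIM, expressed in PC3, summed to between 1475.88 and 1794.6 counts scaled to library size (CPM), while DCN, LUM and PTPRC, markers of fibroblasts and leukocytes, stayed at or below 0.104 CPM in every library. Of the fibroblast and immune lists of 6 genes each, 4 and 3 reached 1 CPM in some library, mainly COL1A2 (52.018 to 90.643 CPM on average) and CD68 (41.009 to 50.603 CPM).

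A transcript share was far less precise than a gene total. The common biological coefficient of variation was 0.627 over the kept transcripts and 0.0334 over whole genes in the same libraries. The median standard deviation of a share between the 3 libraries of a group was 3.5 percentage points in BLANK, 4.02 in DOC, 4.48 in AgNPs and 5.12 in COM. In genes with at least 1000 kept counts in every library (2387 transcripts) it was 1.23, 1.49, 1.52 and 1.76 points. Transcripts estimated at exactly 0 counts made up 3.04% to 3.18% of the members in BLANK, 3.78% to 3.97% in DOC, 5.4% to 5.56% in AgNPs and 7.1% to 7.34% in COM. In COM, 1137 transcripts (9.86%) stood at 0 in 1 replicate and above 10% of their gene in another, against 464 (4.02%) in BLANK. The most used transcript of a gene was not the same in all 3 replicates in 18.7% of genes in BLANK, 21.0% in DOC, 21.7% in AgNPs and 25.3% in COM.

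**Figure D1:**
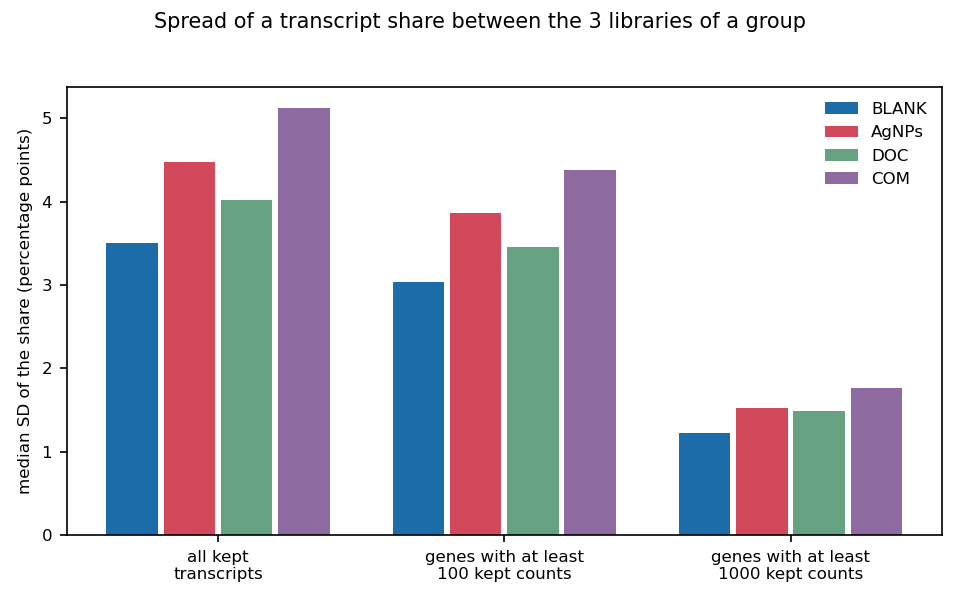
Median standard deviation of a transcript's share of its gene between the 3 libraries of a group, in percentage points (vertical axis), for all kept transcripts and for genes with at least 100 or at least 1000 kept counts in every library (horizontal axis). Bars are the 4 groups; the spread is largest in COM in each of the 3 classes and falls from 5.12 to 1.76 points there as counts rise.

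Few transcripts passed the test of changed usage (edgeR, Benjamini-Hochberg adjusted p below 0.05 over all 11528, two-sided). The test sets the log2 change of a transcript against that of all kept transcripts of its gene together, itself included. A main transcript weighs most in the change of its gene and is harder to call, so no call for it is weak evidence of an unchanged share. Differences in points are given beside the test and are not the quantity it tests. AgNPs against BLANK gave 8 transcripts (0.0694%) in 7 genes (0.167% of the 4204), 5 with a higher share (0.0434%) and 3 with a lower one (0.026%). DOC against BLANK gave 7 (0.0607%) in 7 genes (0.167%), 5 higher (0.0434%) and 2 lower (0.0173%). COM against BLANK gave 44 (0.382%) in 41 genes (0.975%), 14 higher (0.121%) and 30 lower (0.26%). COM against AgNPs gave 26 (0.226%) in 25 genes (0.595%), 11 higher (0.0954%) and 15 lower (0.13%). COM against DOC gave 27 (0.234%) in 24 genes (0.571%), 12 higher (0.104%) and 15 lower (0.13%). The interaction of both treatments gave 7 (0.0607%) in 6 genes (0.143%), 4 higher (0.0347%) and 3 lower (0.026%). These comparisons share libraries, so their calls are not independent of each other. At an unadjusted p below 0.05 the counts were 200, 169, 357, 329, 303 and 246 in the same order, or 1.47% to 3.1% of the transcripts. DESeq2 called 154, 97, 597, 410, 310 and 123, and limma 38, 18, 235, 154, 102 and 32, so the number of calls depended strongly on the tool. With every library thinned to the counts of the smallest, edgeR called 54 transcripts in COM against BLANK and 6 in AgNPs against BLANK. Of the 44 calls in COM against BLANK, 20 were of transcripts estimated at exactly 0, before rounding, in all 3 libraries of a group, and 24 were not. Some of these 24, such as IKBKG NM_001099857.2 in COM, had a group whose estimates all rounded to 0 in the test. More than 20 calls therefore rest on a group tested as 0.

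**Figure D2:**
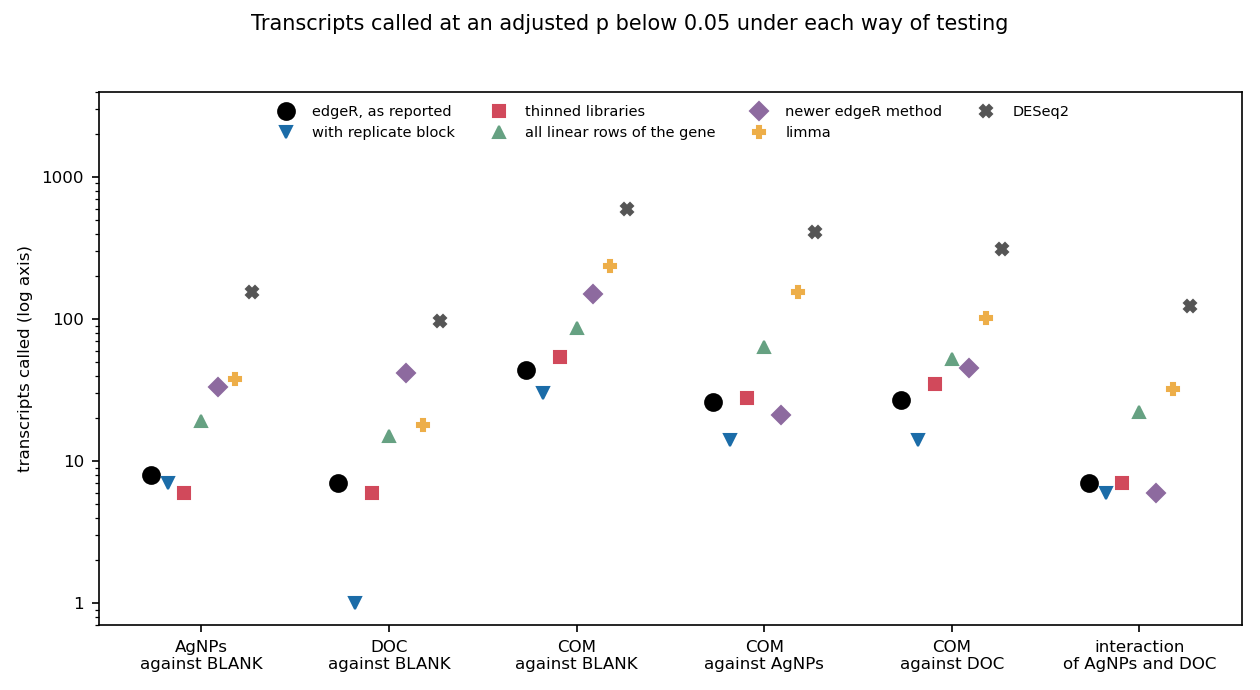
Number of transcripts called at an adjusted p below 0.05 (vertical log axis) in the 6 comparisons (horizontal axis), as reported (black circles) and under 6 other ways of testing. COM against BLANK has the most calls under each of the 7, from 30 with a replicate block to 597 with DESeq2.

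A larger number of shares moved without overlap of the replicates. Among the 10049 transcripts of genes with at least 100 kept counts in every library, 336 (3.34%) differed between AgNPs and BLANK by at least 10 points with no overlap, 173 higher (1.72%) and 163 lower (1.62%). For DOC against BLANK it was 368 (3.66%), 189 higher (1.88%) and 179 lower (1.78%). For COM against BLANK it was 657 (6.54%), 332 higher (3.3%) and 325 lower (3.23%). COM against AgNPs gave 494 (4.92%), 246 higher (2.45%) and 248 lower (2.47%), and COM against DOC 465 (4.63%), 231 higher (2.3%) and 234 lower (2.33%). The median absolute difference over all 11528 transcripts was 2.85 points for AgNPs, 2.78 for DOC and 3.64 for COM. The most used transcript differed between BLANK and COM, and was the same in all replicates of each, in 43 of 2890 genes (1.49%). It did so in 22 of 3002 genes for AgNPs and 26 of 3036 for DOC. In 2 of the 43, either transcript was called by edgeR.

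SHMT2 gave the clearest shift of usage after AgNPs. It encodes the mitochondrial serine hydroxymethyltransferase, which turns serine into glycine and feeds one-carbon metabolism, and it is a known ATF4 target. In BLANK, 93.7%, 90.6% and 92.7% of its kept counts were NM_005412.5, the transcript with the longer coding sequence, whose extra N-terminal codons are known to hold the mitochondrial import signal. That share was 73.5%, 70.2% and 67.0% in AgNPs, 88.8%, 86.8% and 90% in DOC, and 54.9%, 60.2% and 61.9% in COM. All 6 libraries with AgNPs lay below all 6 without.
NM_001166359.1, whose model starts 1001 bases downstream and lacks the 63 coding bases printed above, held 0.474%, 1.45% and 1.39% in BLANK and 0.562%, 1.57% and 1.21% in DOC. It held 12.6%, 15.0% and 15.0% in AgNPs and 22.9%, 20.0% and 16.2% in COM. The share rose by 13.1 ± 0.866 points (SE) in AgNPs (adjusted p = 1.63e-08, edgeR) and by 18.6 ± 1.97 points in COM (adjusted p = 5.35e-10). Another transcript, NM_001166357.1, has a model that starts 1033 bases downstream and has the same shorter coding sequence of 1449 bases. Its mean share was 1.15% ± 0.276 (SD, n = 3) in BLANK, 10.2% ± 0.353 in AgNPs, 2.26% ± 1.09 in DOC and 16.7% ± 1.34 in COM, and the rise was called in AgNPs (adjusted p = 2.77e-06) and COM (adjusted p = 3.45e-08). Both rises were called in all 23 alternative analyses of each comparison. The change of NM_005412.5 in AgNPs, of -22.1 ± 2.09 points, did not pass, while its fall of 33.3 points in COM did (adjusted p = 0.0062). The latter call was lost without BLANK replicate 3 (adjusted p = 0.0525) and with no filter on row sums (0.286). NM_001166358.1, the fourth kept transcript, held 5.4% ± 1.28 in BLANK and 4.62% ± 1.36 in COM.
The gene as a whole moved little, with BLANK at 296 ± 5.59 CPM, AgNPs at 338 ± 7.29, DOC at 290 ± 6.72 and COM at 352 ± 15.0. Per unit length, by the deposited FPKM, the share of NM_001166359.1 was 1.18%, 15.1%, 1.19% and 20.9% in BLANK, AgNPs, DOC and COM. The kept rows held 84.4% of the gene's linear counts, and as a share of all linear counts NM_005412.5 went from 83.9% in BLANK to 56.7% in AgNPs and 45.1% in COM.

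PRDX1, the peroxiredoxin that reduces hydrogen peroxide in the cytosol and an NRF2 target, shifted in the same 2 groups. NM_001202431.1 held 6.43%, 6.63% and 5.74% of its counts in BLANK, 14.6%, 12.7% and 12.2% in AgNPs, 6.25%, 7.42% and 6.06% in DOC, and 14.9%, 14.7% and 16.4% in COM. The libraries with AgNPs did not overlap those without. The rise was 6.91 ± 0.778 points in AgNPs (adjusted p = 2.77e-06) and 9.05 ± 0.585 points in COM (adjusted p = 5.35e-10), and it was called in all 23 alternatives of both comparisons. The main transcript, NM_181697.2, went from 90.9% ± 0.393 in BLANK to 83.3% ± 1.32 in AgNPs and 81.2% ± 0.687 in COM, and did not pass the test. The gene total rose from 593 ± 38.3 CPM in BLANK to 770 ± 36.0 in AgNPs and 789 ± 17.1 in COM. All matched PRDX1 models share 1 coding sequence of 597 bases. GENCODE pairs NM_001202431.1 with the same model as NM_002574.3, so the bases that set it apart are not shown.

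Among other antioxidant genes, TXNRD1 and TRIM16 had a called transcript. TXNRD1, cytosolic thioredoxin reductase, rose as a gene from 563 ± 28.1 CPM in BLANK to 1380 ± 43.6 in AgNPs and 1500 ± 18.8 in COM. Its transcript NM_001261445.1, with the extra N-terminal coding bases printed above, held 1.91%, 1.87% and 2.9% in BLANK, 2.54%, 2.86% and 2.7% in AgNPs, 1.78%, 1.36% and 1.53% in DOC, and 4.68%, 3.83% and 4.33% in COM. COM lay above every other library. The share was higher in COM than in DOC by 2.73 ± 0.276 points (adjusted p = 0.00055), a call made in all 23 alternatives. The main transcript NM_182729.2 stayed between 71.6% and 76.1% on average in the 4 groups.
TRIM16, a ubiquitin ligase of the antioxidant response, went from 22.9 ± 0.416 CPM in BLANK to 69.0 ± 1.46 in AgNPs and 74.3 ± 4.6 in COM. Its transcript NM_001348121.1 stood at 0%, 0.044% and 0% in BLANK, 5.45%, 0% and 12.7% in AgNPs, 0%, 0% and 4.99% in DOC, and 26.3%, 14.5% and 32.5% in COM. The difference between COM and BLANK of 24.4 ± 5.3 points passed (adjusted p = 0.00673). It was lost without any of BLANK replicates 1 (adjusted p = 0.0634), 2 (0.0575) and 3 (0.0619). TRIM16 has a close paralog, TRIM16L, so the split of its reads is uncertain. Of the 23 member genes (60 transcripts) on a list of NRF2 targets, 1 transcript was called higher in AgNPs, 2 in COM against BLANK and 2 in COM against DOC, and none lower, where 0.0694%, 0.382% and 0.234% of all members were called. The median absolute difference over that list was 2.75 points in AgNPs and 3.56 in COM, beside 2.85 and 3.64 over all members.

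Further genes of amino acid supply and translation had transcripts that changed with AgNPs or COM. WARS1, the cytosolic tryptophanyl-tRNA synthetase, used NM_004184.3 for 22.3%, 22.1% and 25.3% of its kept counts in BLANK, 36.6%, 36.3% and 35.7% in AgNPs, 27.8%, 20.8% and 18.3% in DOC, and 46.5%, 39.8% and 37.5% in COM. The AgNPs and COM libraries lay above all libraries without AgNPs. The rise of 18 ± 2.87 points in COM passed (adjusted p = 0.00805), and the difference of 13.0 ± 1.06 points in AgNPs did not. NM_173701.1, whose model starts 1161 bases upstream and codes for the same 1413 bases, fell by 22.5 points in COM, from 65.5% ± 0.695 to 43.0% ± 7.21 (adjusted p = 0.0427). The call for NM_004184.3 was lost without BLANK replicate 1 (adjusted p = 0.0804) or 2 (0.114), and both calls were lost when all linear rows of the gene were the denominator (adjusted p = 1), under limma (0.435 and 0.138) and with no filter (0.118 and 0.471). The call for NM_173701.1 was lost in 10 of the 12 fits without 1 library, with adjusted p up to 0.2 without BLANK replicate 2.
ASNS, asparagine synthetase, is a classical ATF4 target and rose as a gene from 71.2 ± 3.06 CPM in BLANK to 169 ± 2.97 in AgNPs and 213 ± 5.77 in COM. NM_183356.3 held 12.4%, 16.4% and 14.7% in BLANK, 21.7%, 28.7% and 21.9% in AgNPs, 17.2%, 27.0% and 16.5% in DOC, and 33.8%, 35.2% and 34.7% in COM. COM lay above the other 3 groups and varied by 0.704 points (SD). The rise of 20.1 ± 1.21 points in COM passed (adjusted p = 0.00185, range 2.77e-06 to 0.567 over 23 alternatives, the highest with limma). Its model starts 71 bases upstream of that of NM_001673.4, the main transcript, and both carry the same coding sequence of 1683 bases. NM_001673.4 held 83.8% ± 0.772 in BLANK and 59.4% ± 2.11 in COM, without a call.
SLC6A9, the glycine transporter GlyT1, had 21.5%, 24.3% and 41.3% of its counts on NM_001328629.1 in BLANK, 0% in all 3 AgNPs libraries, 45.3%, 33.6% and 44.8% in DOC, and 18.3%, 0.62% and 11.5% in COM. The AgNPs group, where 3 counts of the gene's kept counts would be 0.249%, differed from BLANK by -29 ± 6.2 points (adjusted p = 0.00405). Leaving out AgNPs replicate 1 ended the call (adjusted p = 0.0522), as did limma (0.0523) and all linear rows as the denominator (0.0551). GENCODE pairs NM_001328629.1 with the same model as NM_001024845.2 of this gene, so what sets it apart is not shown. GTPBP2, a GTPase that rescues stalled ribosomes, had NM_001286216.1 at 12.5%, 0% and 7.93% in BLANK, 25.1%, 31.5% and 31.2% in AgNPs, 0% in all 3 DOC libraries, and 34.0%, 44.1% and 15.6% in COM. COM exceeded DOC by 31.2 ± 8.35 points (adjusted p = 0.00569). That transcript starts 1809 bases downstream of NM_019096.4 and lacks 264 of its coding bases.

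**Figure D3:**
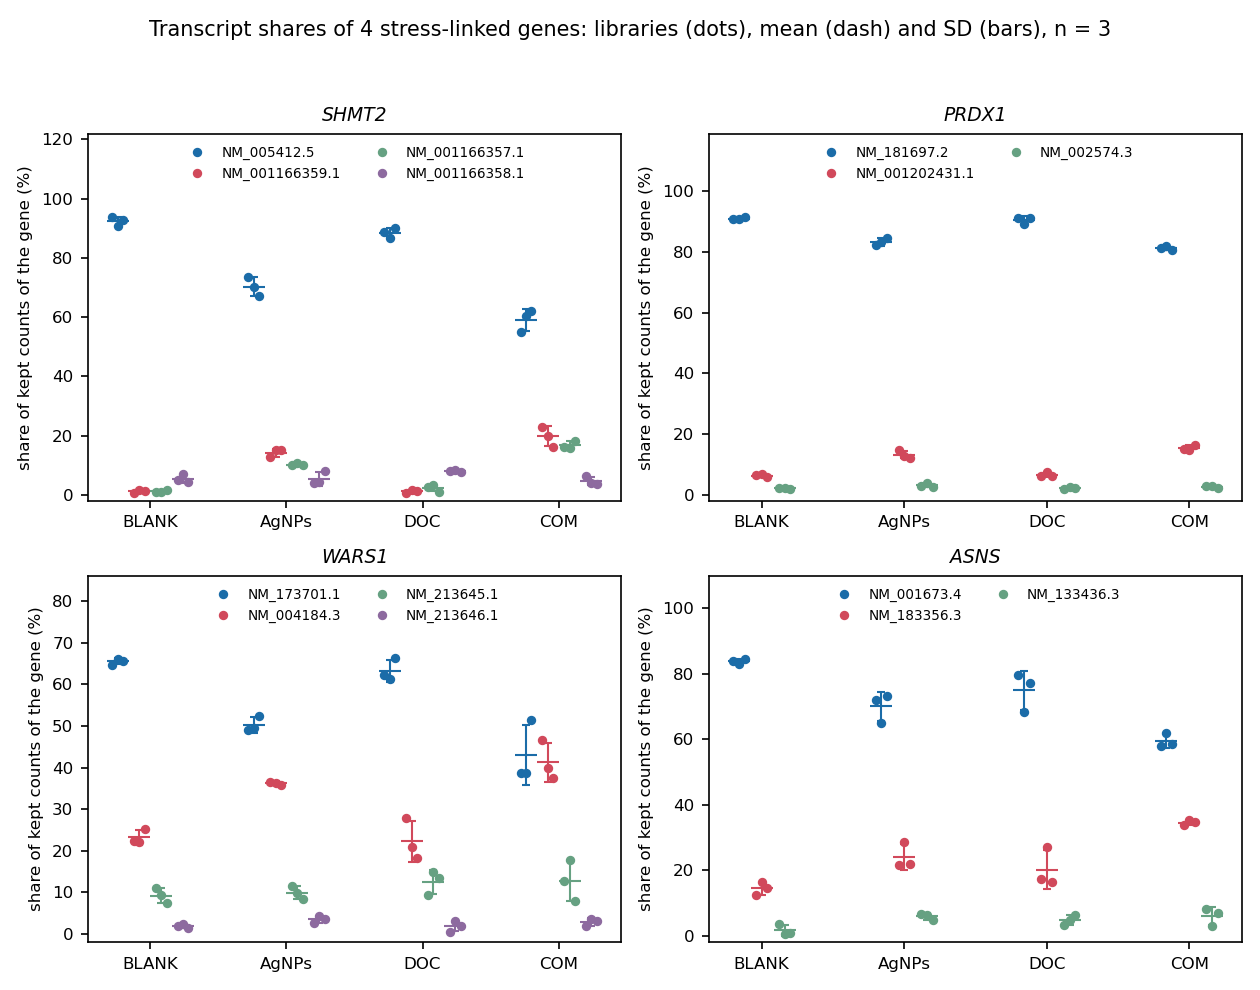
Share of transcripts in the kept counts of SHMT2, PRDX1, WARS1 and ASNS (vertical axes, percent) in the 4 groups (horizontal axes). Not every kept transcript of PRDX1 is shown. Dots are libraries, dashes means and bars standard deviations over 3 libraries; NM_001166359.1 and NM_001166357.1 of SHMT2, NM_001202431.1 of PRDX1 and NM_004184.3 of WARS1 are higher in all AgNPs and COM libraries than in all BLANK and DOC libraries.

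On a list of ATF4 targets, 24 genes with 68 transcripts were members. AgNPs against BLANK called 2 of these transcripts higher (both SHMT2) and 1 lower (SLC6A9), and COM against BLANK called 4 higher and 2 lower (SHMT2, WARS1 and ASNS). COM against DOC called 3 higher and 1 lower. Over all members the called shares of these comparisons were 0.0694%, 0.382% and 0.234%. DOC against BLANK called none, with 7 calls over all members. The median absolute difference of the 68 transcripts was 4.04 points in AgNPs and 4.21 in COM, beside 2.85 and 3.64 over all members, and 2.09 in DOC beside 2.78.

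IKBKG lost nearly all counts of 1 transcript in COM. The gene encodes NEMO, the regulatory subunit of the IκB kinase that activates NFκB. NM_001099857.2 held 40.4%, 39.9% and 45.0% of its kept counts in BLANK, 7.54%, 8.41% and 15.8% in AgNPs, 54.9%, 43.4% and 59.3% in DOC, and 0%, 0.00607% and 0% in COM. The 4 groups did not overlap between those with and those without AgNPs, and COM lay below AgNPs. In COM 3 counts would be 0.153%, and the estimate above 0 there rounded to 0 in the test. The difference from BLANK was -41.8 ± 1.62 points in COM (adjusted p = 1.81e-07), called in all 23 alternatives. The difference of -31.2 ± 3.08 points in AgNPs did not pass.
NM_001099856.4, which starts 5063 bases upstream and adds the 204 coding bases printed above, held 30%, 23.5% and 20.8% in BLANK, 45.8%, 40.9% and 49.8% in AgNPs, 20.9%, 17.8% and 25.7% in DOC, and 49.8%, 59.3% and 49.8% in COM. It was higher in every library with AgNPs than in every library without, and was not called. NM_001145255.2 went from 8.22% ± 3.08 in BLANK to 17.1% ± 7.04 in AgNPs and 24.6% ± 1.59 in COM. The gene total was 44.2 ± 1.46 CPM in BLANK, 74.8 ± 0.914 in AgNPs, 42.3 ± 1.89 in DOC and 70.3 ± 1.66 in COM. IKBKG has a partial pseudogene copy beside it, so the assignment of its reads is uncertain.

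PFKFB3 and ARID5B changed between transcripts with distant start sites. PFKFB3 makes fructose 2,6-bisphosphate, the main allosteric activator of glycolysis. NM_001145443.2 held 57.0%, 56.8% and 63.9% in BLANK, 35.4%, 42.2% and 39.8% in AgNPs, 45.7%, 53.7% and 50.6% in DOC, and 25.0%, 23.2% and 16.9% in COM. All 3 treated groups lay below BLANK, and COM lay below the rest. The fall of 37.5 points in COM passed (adjusted p = 0.00755), and the differences of -20.1 ± 3.06 in AgNPs and -9.26 ± 3.3 in DOC did not. Without BLANK replicate 3 (adjusted p = 0.0812) or COM replicate 3 (0.0841) the call was lost. NM_004566.3, which starts 57997 bases downstream at 6202931, went from 38.4% ± 3.64 in BLANK to 57.3% ± 4.24 after AgNPs, 47.7% ± 5.36 after DOC and 70.8% ± 4.01 after both, without a call.
ARID5B, a DNA-binding partner of a histone demethylase, had NM_001244638.1 at 19.5%, 17.0% and 14.2% in BLANK, 19.2%, 29.4% and 27.1% in AgNPs, 16.3%, 26.3% and 11.7% in DOC, and 40.3%, 41.8% and 42.1% in COM. COM stood above the other 3 groups, which overlapped each other. The share rose by 24.5 ± 1.61 points in COM (adjusted p = 0.00755). This was lost without BLANK replicates 2 (adjusted p = 0.0575) or 3 (0.0739) and with all linear rows as the denominator (0.0556). The transcript starts 147911 bases downstream of NM_032199.2 and lacks 733 of its coding bases. The gene total was 153 CPM in BLANK, 194 with AgNPs, 179 with DOC and 230 with both.

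DOC against BLANK called a transcript of ODC1, TGOLN2 and ALDH3A1, among others. ODC1, ornithine decarboxylase, the first enzyme of polyamine synthesis, had NM_001287190.1 at 25.7%, 20.1% and 14.8% in BLANK, 20.4%, 19.0% and 26.1% in AgNPs, 30.1%, 33.7% and 37.7% in DOC, and 36.1%, 32.0% and 40.3% in COM. All 6 libraries with DOC lay above all 6 without. The rise was 13.6 ± 3.82 points in DOC (adjusted p = 0.013) and 15.9 ± 3.96 in COM (adjusted p = 0.000841). The call in DOC was lost without BLANK replicate 2 (adjusted p = 0.0892), BLANK replicate 3 (0.378), DOC replicate 2 (0.0743) or DOC replicate 3 (0.203), under limma (0.801), under DESeq2 (0.0603), with no filter (0.396) and with all linear rows as the denominator (0.0873). In COM it was lost under limma (0.209) and with no filter (0.0585) and in none of the 12 fits without 1 library. The matched models of NM_001287190.1 and NM_002539.2 share a coding sequence of 1383 bases, and their starts lie 724 bases apart. NM_002539.2 held 75.5% ± 4.39 in BLANK, 73.7% ± 3.81 in AgNPs, 60.6% ± 4.49 in DOC and 58.8% ± 3.35 in COM.
TGOLN2, a protein of the trans-Golgi network, had NM_001206841.1 at 0% in all BLANK libraries, 1.75%, 1.37% and 1.59% in AgNPs, 2.31%, 2.51% and 2.67% in DOC, and 6.68%, 0% and 2.88% in COM. It was called higher in DOC (adjusted p = 0.013), AgNPs (0.0202) and COM (0.00185). The call in DOC was lost without BLANK replicates 1 (adjusted p = 0.115), 2 (0.0892) or 3 (0.137) or DOC replicate 3 (0.0634). In AgNPs it was lost without BLANK replicates 1 (0.118), 2 (0.135) or 3 (0.181), AgNPs replicate 1 (0.0522) or DOC replicate 3 (0.0643). COM overlapped BLANK at 0% in replicate 2. The call in COM was lost under limma (0.0523) and when only the libraries of both groups were fitted (0.117). The main transcript NM_006464.3 stood at 84.0% ± 0.227 in BLANK, 78.9% ± 1.79 in AgNPs, 72.6% ± 0.983 in DOC and 69.2% ± 5.62 in COM, and each treated group lay below BLANK without overlap and without a call.
ALDH3A1, an aldehyde dehydrogenase that detoxifies lipid aldehydes, rose as a gene from 124 ± 3.74 CPM in BLANK to 727 ± 12.5 in AgNPs. Its minor transcript NM_001135167.1 held 1.88%, 2.06% and 0.89% in BLANK, 1.11%, 1.71% and 1.23% in AgNPs, 0% in all DOC libraries and 1.49%, 0.977% and 1.18% in COM. In DOC, 3 counts would be 0.0414%. It fell in DOC against BLANK (adjusted p = 0.00179), a call lost without DOC replicate 3 (0.0503) and with all linear rows as the denominator (0.202). Further calls in DOC were TIAL1 and ARPC4, described below, and CCT5 NM_001306153.1 (adjusted p = 0.0293), named after its values were seen. That transcript stood at 0%, 7.07% and 0.00308% in DOC, and its call was made in 12 of 23 alternatives and lost without DOC replicate 2 (adjusted p = 1), any 1 of the 3 BLANK libraries (0.316, 0.222 and 0.378) or any 1 of the 3 COM libraries (0.0916, 0.0772 and 0.0885).

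**Figure D4:**
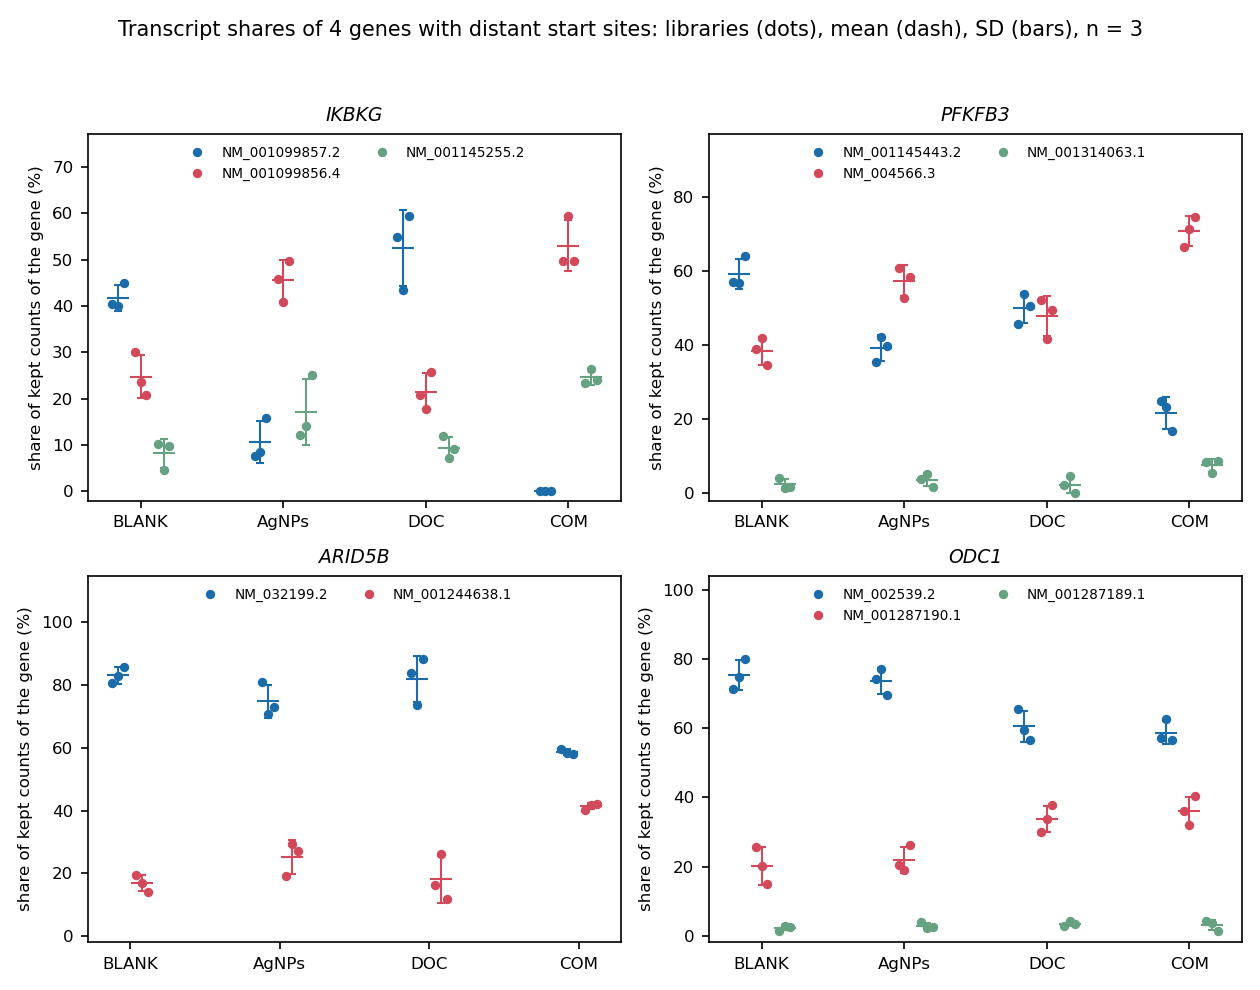
Share of transcripts in the kept counts of IKBKG, PFKFB3, ARID5B and ODC1 (vertical axes, percent) in the 4 groups (horizontal axes). Not every kept transcript of IKBKG and ODC1 is shown. Dots are libraries, dashes means and bars standard deviations over 3 libraries; NM_001099857.2 of IKBKG is near 0 in COM, and NM_001287190.1 of ODC1 is higher in all DOC and COM libraries than in all BLANK and AgNPs libraries.

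Of the 8 calls in AgNPs against BLANK, 3 were of genes not yet described. MEPCE, the enzyme that caps the 7SK RNA, had NM_001194990.1 at 0% in all BLANK libraries, 15.2%, 8.1% and 9.68% in AgNPs, 0%, 7.35% and 11.6% in DOC, and 16.7%, 8.67% and 19.8% in COM. Its model lacks 1407 coding bases of the main transcript. In BLANK 3 counts would be 0.0695%. The call in AgNPs (adjusted p = 0.03) was lost in 10 of the 12 fits without 1 library, with adjusted p from 0.0522 without COM replicate 3 to 0.181 without BLANK replicate 3. The call in COM (adjusted p = 0.00724) was lost without BLANK replicate 3 (0.0525). ST6GAL1, a sialyltransferase, had NM_173217.2 at 11.4%, 5.58% and 5.97% in BLANK, 0% in all AgNPs libraries, 15.3%, 8.13% and 8.57% in DOC, and 10.4%, 9.55% and 20.0% in COM. The fall in AgNPs (adjusted p = 0.0225) was lost without AgNPs replicates 1 (0.147), 2 (0.104) or 3 (0.103) or BLANK replicate 1 (0.0599). It was also lost with row sums of at least 100 (0.327) and with no filter (0.518). HMGA1, a chromatin protein, had NM_001319077.1 at 0.476% ± 0.185 in BLANK and at or below 0.000334% in AgNPs (adjusted p = 0.0453), and the call was lost in 7 of the 12 fits without 1 library (adjusted p 0.0845 to 0.255). HMGA1 has pseudogene copies, so the assignment of its reads is uncertain.

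Several transcripts stood at or near 0 in COM. MBOAT7, an acyltransferase of phosphatidylinositol, had NM_024298.4 at 26.0%, 43.4% and 38.1% in BLANK, 13.7%, 29.8% and 35.6% in AgNPs, 13.6%, 0% and 0% in DOC, and 0% in all COM libraries, where 3 counts would be 0.234%. Its share fell in COM against BLANK (adjusted p = 0.00045) and against AgNPs (adjusted p = 0.00222), in all 23 alternatives of each. The kept rows held 34.2% of the gene's linear counts. Over all linear rows its share was 15.3% in BLANK and 0% in COM. The transcript has 219 coding bases that NM_001146083.2 lacks. NM_001146082.2 went from 17.3% ± 2.24 in BLANK to 39.9% ± 5.81 in COM without a call.
NISCH, an endosomal protein, had NM_007184.3, the form with the longest coding sequence of the 3, at 26.0%, 28.3% and 31.7% in BLANK, 22.8%, 35.5% and 17.2% in AgNPs, 19.6%, 29.8% and 0% in DOC, and 0% in all COM libraries, where 3 counts would be 0.485%. The fall of 28.7 points against BLANK was called in all 23 alternatives (adjusted p = 0.00168). It was 9.99 points over all linear rows and 19.1 points by FPKM, and the kept rows held 30.4% of the gene's counts. MOV10, an RNA helicase, had NM_001321324.1 at 50.2%, 32.8% and 41.6% in BLANK, 34.9%, 12.6% and 34.0% in AgNPs, 17.3%, 0% and 14.3% in DOC, and 0% in COM (adjusted p = 0.0125 against BLANK). This call was lost without BLANK replicates 1 (0.0537) or 3 (0.0552) or COM replicates 1 (0.0511), 2 (0.0591) or 3 (0.0582). Over all linear rows the fall was 18.4 points.
ITPRID2, an actin-associated protein, had NM_001130445.2 at 30.1%, 37.1% and 22.5% in BLANK, 28.3%, 34.0% and 39.2% in AgNPs, 53.3%, 31.5% and 25.0% in DOC, and 0.00167%, 0.0301% and 6.12% in COM. COM lay below the other 3 groups, which overlapped. It fell against BLANK (adjusted p = 0.00805), AgNPs (0.00858) and DOC (0.00417). All 3 calls were lost when only the libraries of both groups were fitted (0.257, 0.205 and 0.327), and that against BLANK also without BLANK replicate 2 (0.0575). Over all linear rows the fall against BLANK was 13.1 points.
SH2B1, an adaptor of receptor tyrosine kinases, had NM_001145797.1 at 32.8%, 31.4% and 27.8% in BLANK, 13.5%, 29% and 12.6% in AgNPs, 25.3%, 33.8% and 25.3% in DOC, and 0%, 0.0192% and 1.93% in COM (adjusted p = 0.0062 against BLANK). That call was lost without COM replicate 1 (0.0549) and when only the libraries of both groups were fitted (0.235). Another SH2B1 transcript, NM_001145796.1, held 0%, 4.54% and 22.9% in BLANK, 0%, 0.0623% and 0% in AgNPs, 13.4%, 12.2% and 16.4% in DOC, and 32.4%, 37.3% and 58.0% in COM. It was higher in COM than in AgNPs by 42.5 ± 7.85 points (adjusted p = 0.0053), in all 22 alternatives. Over all linear rows that difference was 16.7 points. SH2B1 had as few as 164 kept counts in a library. MKNK2, a kinase of the translation factor eIF4E known to be spliced into 2 forms with different C termini, had NM_017572.3 at 7.7%, 10.2% and 7.63% in BLANK, 0%, 0% and 1.81% in AgNPs, 9.01%, 2.46% and 4.85% in DOC, and 0% in COM. Its fall of 8.52 points in COM (17.1 by FPKM) passed (adjusted p = 0.018). This was lost without any 1 of the 3 BLANK libraries (0.0634, 0.0718 and 0.0649) or the 3 COM libraries (0.068, 0.0794 and 0.0746). GRK6, a kinase of G protein-coupled receptors, had NM_001004105.2 at 17.6%, 39.9% and 33.5% in BLANK and 0%, 2.5% and 0% in COM (adjusted p = 0.028). This was lost without BLANK replicates 2 (0.158) or 3 (0.106) or COM replicates 1 (0.123) or 3 (0.132).

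DDX17, an RNA helicase of splicing and microRNA processing, had the largest of the 7 called interactions, where an interaction is the change with DOC among AgNPs-treated cells minus that among untreated cells. NM_001098504.1 held 17.0%, 22.1% and 16.2% of its counts in BLANK, 13.8%, 12.6% and 5.24% in AgNPs, 10.3%, 11% and 11.9% in DOC, and 23.2%, 35.6% and 41.7% in COM. Both single treatments lay below BLANK and the combination above it, with no overlap. DOC changed the share by -7.38 points without AgNPs and by 23.0 points with them, an interaction of 30.4 ± 6.35 points (adjusted p = 0.0084). The call was lost without BLANK replicate 2 (0.0527), DOC replicate 1 (0.0523) or DOC replicate 3 (0.0523). The transcript has 6 coding bases more than NM_006386.4, and the model of NM_006386.4 ends 2438 bases earlier. The gene total stayed between 242 and 257 CPM.
TIAL1, an RNA-binding protein of stress granules that also regulates splicing, had 2 transcripts with an interaction. NM_001323965.1 held 6.46%, 9.29% and 3.52% in BLANK, 0%, 0% and 1.33% in AgNPs, 0.00583%, 0% and 0.00296% in DOC, and 8.02%, 10.8% and 3.37% in COM. NM_001323967.1 held 2.87%, 0% and 2.91% in BLANK, 18.9%, 10.6% and 7.29% in AgNPs, 6.67%, 10.1% and 11.1% in DOC, and 0%, 0% and 0.00117% in COM. For the first, the single treatments were low and BLANK and COM high, and for the second the reverse. The interactions were 13.4 ± 2.77 points (adjusted p = 0.00106) and -19.6 ± 3.82 points (adjusted p = 0.000349), both called in all 21 alternatives. NM_001323965.1 was also called lower in DOC against BLANK (adjusted p = 0.013, edgeR). That call was lost without DOC replicates 1 (0.131), 2 (0.164) or 3 (0.203) or BLANK replicate 1 (0.0628), and with a replicate block (0.0818). GENCODE pairs both TIAL1 transcripts with 1 model, so the bases that tell them apart are not shown.
IKBKG NM_001099857.2 changed with DOC by 10.8 points without AgNPs and by -10.6 points with them, an interaction of -21.4 ± 5.65 points (adjusted p = 0.00106). ARPC4, a subunit of the Arp2/3 actin nucleator, had NM_001024960.2 at 0.142%, 0.0937% and 0% in BLANK, 4.78%, 2.15% and 3.53% in AgNPs, 3.32%, 3.22% and 12.4% in DOC, and 0.0561%, 2.99% and 0.129% in COM. It was called in DOC against BLANK (adjusted p = 0.013) and in the interaction (0.0084). Without DOC replicate 3, its highest library, both calls were lost (adjusted p = 0.389 and 0.31). The call in DOC was also lost without BLANK replicates 1 (0.0516), 2 (0.0968) or 3 (0.282), and the interaction without BLANK replicates 2 (0.0518) or 3 (0.0917).

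**Figure D5:**
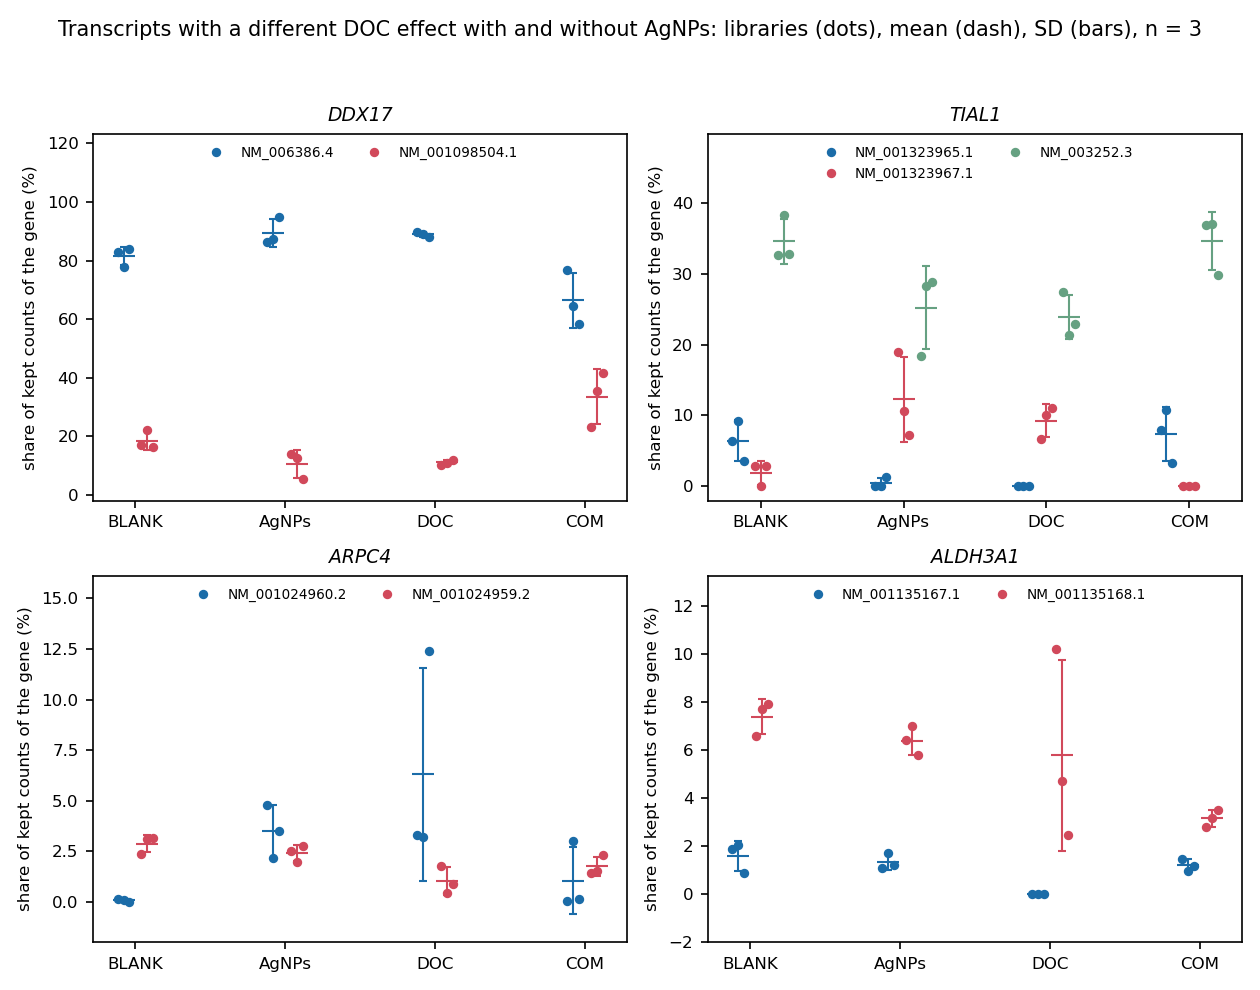
Share of selected transcripts in the kept counts of DDX17, TIAL1, ARPC4 and ALDH3A1 (vertical axes, percent) in the 4 groups (horizontal axes). Dots are libraries, dashes means and bars standard deviations over 3 libraries; NM_001098504.1 of DDX17 is higher in COM (23.2% to 41.7%) than in any other group.

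COM against AgNPs also called HNRNPUL1, an RNA-binding protein of transcription and the DNA damage response. NM_144732.4 held 32.8%, 32.9% and 22.7% in BLANK, 13.6%, 14.8% and 0% in AgNPs, 28.6%, 49.3% and 43.9% in DOC, and 61.1%, 41.0% and 31.7% in COM. COM exceeded AgNPs by 35.1 ± 9.89 points (adjusted p = 0.0178). The call was lost without COM replicates 1 (0.123) or 2 (0.0504), and when only the libraries of both groups were fitted (0.393). EIF5A, the hypusinated translation factor, had NM_001143760.1 at 0.671%, 1.08% and 0.978% in BLANK, 0.959%, 1.11% and 0.56% in AgNPs, 0.738%, 0.802% and 2.18% in DOC, and 4.89%, 3.35% and 2.4% in COM. The rise against BLANK (adjusted p = 0.0326) was lost without any 1 of the 3 BLANK libraries (0.214, 0.0892 and 0.116), COM replicate 1 (0.298) or COM replicate 2 (0.0794). This transcript has 90 coding bases more than the main one. EIF5A has a near copy, EIF5AL1, so its reads are uncertain. PAPOLA, the canonical poly(A) polymerase, had NM_001293628.1 at 1.77% ± 0.309 in BLANK and at or below 0.00275% in COM (adjusted p = 0.0113). This was lost without BLANK replicate 3 (0.0563) or COM replicates 1 (0.068), 2 (0.0806) or 3 (0.0759).

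Lists of genes that control RNA processing were counted next. None of the 31 member transcripts of SR proteins and their relatives, the 70 of hnRNP proteins on the list, the 26 of splicing kinases or the 23 of nonsense-mediated decay factors was called in any of the 6 comparisons. The spliceosome list (22 genes, 62 transcripts) had 1 called transcript, that of DDX17, and the cleavage and polyadenylation list (14 genes, 44 transcripts) had 1, that of PAPOLA. The translation initiation list (22 genes, 63 transcripts) had 1, that of EIF5A. These lists leave out HNRNPUL1 and TIAL1, called above, and DDX39B, a helicase of splicing and messenger RNA export, named after its values were seen. DDX39B NM_080598.5 held 30.8%, 30.2% and 28.4% in BLANK, 18%, 24.6% and 22.1% in AgNPs, 21.9%, 18.4% and 18.3% in DOC, and 15.1%, 11.6% and 13.4% in COM. Each treated group lay below BLANK, and COM below the others. Its fall of 16.4 points in COM passed (adjusted p = 7.63e-05), in all 23 alternatives (1.91e-10 to 0.0106). Lists of chaperones, autophagy and lysosome genes, mitosis, DNA replication and repair, tubulins and microtubule proteins, apoptosis, cell cycle regulators and metal handling had no called transcript in any comparison. Across all members 0.0607% to 0.382% were called. The list of genes known from textbooks for regulated splicing (49 genes, 186 transcripts) had 1 transcript called in COM against BLANK and COM against DOC, that of MKNK2. Of its 175 transcripts in genes with at least 100 counts, 11 differed by 10 points without overlap in COM against BLANK, beside 6.54% over all members.

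Several of the 12 genes named whatever their result changed strongly in total with no called change of usage. SQSTM1, the autophagy receptor p62, rose from 161 ± 6.86 CPM in BLANK to 425 ± 2.04 in AgNPs and 536 ± 7.88 in COM, while NM_003900.4 held 94.8% ± 0.696, 97.1% ± 0.347 and 98.0% ± 0.559 of its kept counts. ATF3, a stress-induced transcription factor, rose from 7.04 ± 0.243 CPM to 56.3 ± 2.75 and 111 ± 3.14, with NM_001674.3 at 82.5% ± 6.69, 86.8% ± 3.56 and 80.7% ± 3.35. Its kept counts in the BLANK libraries were only 74 to 94. CDKN1A, the cyclin-dependent kinase inhibitor p21, rose from 8.98 ± 0.566 CPM to 38.2 ± 1.5 and 70.9 ± 1.47, and its minor transcript NM_001220778.1 held 4.29% ± 5.0, 10.4% ± 0.296 and 10.3% ± 3.44. VEGFA rose from 47.3 ± 1.99 CPM to 100 ± 0.922 and 139 ± 9.91, and its 8 kept transcripts varied too much between replicates to be compared, with standard deviations up to 26.4 points.
BCL2L1 is spliced into a long form that protects from apoptosis and a short form that promotes it. The short form, NM_001191.3, held 6.73%, 10.9% and 18.2% in BLANK, 11%, 17.4% and 6.81% in AgNPs, 14.8%, 23.4% and 18.5% in DOC, and 21.8%, 25.2% and 26.8% in COM. COM lay above BLANK without overlap, by 12.6 ± 3.65 points, and the difference did not pass the test. MDM2, the ubiquitin ligase of p53, had NM_002392.5 at 95.7%, 95.9% and 96.3% in BLANK and 88.7%, 87.5% and 89.8% in COM, also without a call. PKM, pyruvate kinase, kept NM_002654.5 between 86.5% and 87.8% on average in all 4 groups, with 48.7% of its counts on kept rows. The share of NM_001001391.1 of CD44, a cell surface receptor for hyaluronan, was 76.1% ± 3.2 in BLANK and 77.1% ± 3.27 in COM. CLK1, a kinase of splicing factors, had NM_004071.3 at 44.9% ± 6.61 in BLANK, 67.2% ± 7.53 in DOC and 57.5% ± 21.4 in COM. TPM1, a tropomyosin, had NM_001330344.1 at 85.4% ± 6.55 in BLANK and 74.8% ± 10.2 in COM. No transcript of PKM, CD44, CLK1 or TPM1 was called. Kept rows held 51.2% of the counts of CD44 and 32.1% of those of CLK1, which had 106 to 280 kept counts per library. The test did not cover the other counts of these genes.

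Called genes were compared with the other members by their totals and their start sites. The total changed in 4 of the 7 genes with a call in AgNPs against BLANK and in 27 of the 41 in COM against BLANK, beside 47.7% and 66.2% of all 4204 member genes. Of the 41, 26 had 2 or more transcripts with a GENCODE model whose length was within 5% of the length implied by the deposited counts and FPKM, and in 16 of these the starts lay at least 50 bases apart. Over all members this held for 747 of 1816 genes (41.1%).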

How the data were processed

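RNA of 12 PC3 libraries was measured by sequencing. The submitters' processing notes name HISAT2, Bowtie2 2.2.5, RSEM and GRCh38, without saying which step used which. The deposited table holds, per the file headers, read-count columns, which are expected counts per transcript by their values, and expression columns, which are FPKM for linear rows by their values. The members and all gene lists were chosen with earlier results of these data known.

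Expected counts were rounded. Usage was tested with edgeR 4.0.16 (R 4.3.3): TMM factors, a robust quasi-likelihood fit of all 12 libraries with 1 coefficient per group, and its test of differential transcript usage, two-sided, adjusted over 11528 transcripts per comparison. Gene totals are sums over all linear rows, tested by edgeR over 19986 genes. CPM scale the counts to the linear total of the library. The fit was also run on simulated data, with each transcript drawn independently around fixed means. That simulation held no division of shared reads between transcripts, so it cannot judge calls that rest on estimates of 0. Errors of differences are standard errors from 3 libraries per group. A limit for 0 is 3 counts of the group's kept counts and covers counting error only. A 0 is an estimate by the authors' quantification, which divides shared reads between transcripts, and the uncertainty of that division was not used here. Depth was 10996446 to 22769479 counts per library.

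Genes were named by the largest shifts, up to 10 for each treatment against BLANK and up to 5 for the other comparisons. These had at least 100 kept counts in every library and called shares without overlap (no overlap condition for the interaction). Up to 3 called genes of each list were named with the same minimum of counts and no overlap condition. A further 12 genes were named whatever their result or counts. Alternatives were RLE factors, row sums of at least 100 or 1000 or no filter, all linear rows as denominator, limma 3.58.1, DESeq2 1.42.0, a fit of both groups' libraries only, a replicate block, thinned libraries, each library left out, and, chosen after seeing the data, edgeR's newer quasi-likelihood method. A called gene is not reported here.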

Additional observations from a re-analysis of the deposited data

Results flagged for a closer look

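In 7 transcripts of 6 genes the effect of DOC on usage differed with and without AgNPs, by the edgeR test of the difference itself on the log2 scale. On that scale a change from or to a share near 0 is large, and the points given here are not the quantity tested. The difference, in percentage points of the gene's kept counts, was 30.4 for DDX17 NM_001098504.1 (adjusted p = 0.0084), -21.4 for IKBKG NM_001099857.2 (0.00106), and 13.4 and -19.6 for TIAL1 NM_001323965.1 (0.00106) and NM_001323967.1 (0.000349). It was -8.67 for ARPC4 NM_001024960.2 (0.0084), 1.47 for ALDH3A1 NM_001135167.1 (0.0186) and 0.583 for HMGA1 NM_001319077.1 (0.00255). Both TIAL1 calls held in all 21 alternatives. The HMGA1 call was lost without COM replicate 1 (adjusted p = 0.914) and under the newer edgeR method (0.428). The ALDH3A1 call was lost in 7 fits without 1 library (AgNPs replicates 1, 2 and 3, BLANK replicate 2, and DOC replicates 1, 2 and 3), with adjusted p from 0.0518 to 0.0917, and also with all linear rows as the denominator (0.456), under the newer edgeR method (0.219) and with thinned libraries (0.109). For IKBKG it was lost under limma (0.145) and under the newer edgeR method (0.252).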

How the results depend on the processing

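Counts of called transcripts are given in a fixed order: each of AgNPs, DOC and COM set against BLANK, then COM set against AgNPs and against DOC, and last the interaction. They were 8, 7, 44, 26, 27 and 7 as reported and the same with RLE factors. Row sums of at least 1000 gave 3, 3, 28, 13, 15 and 2, row sums of at least 100 gave 8, 8, 32, 22, 24 and 12, and no filter gave 8, 8, 26, 18, 19 and 13. All linear rows as the denominator gave 19, 15, 87, 64, 52 and 22, limma 38, 18, 235, 154, 102 and 32, DESeq2 154, 97, 597, 410, 310 and 123, and the newer edgeR method, chosen after seeing the data, 33, 42, 150, 21, 45 and 6. Fitting only the libraries of both groups gave 13, 19, 51, 17 and 19, with no interaction to fit. Thinned libraries gave 6, 6, 54, 28, 35 and 7. Leaving out 1 library gave 5 to 13, 1 to 11, 21 to 49, 22 to 36, 20 to 37 and 5 to 16. With a replicate block the counts were 7, 1, 30, 14, 14 and 6. Deviations of transcripts from their group means were not correlated between same-numbered libraries (-0.0473 to 0.0191). The spread of single transcripts is large, so this check cannot exclude a batch shared by same-numbered libraries. Of 79 calls of named transcripts, 20 held in every alternative, 46 were lost in at least 1 fit without 1 library and 13 only in other fits, and none reversed. The cause of these changes was not tested. Differences of shares by FPKM stayed within 1 SD in 74 of the 79 calls and moved further in 5, and with all linear rows in 55 and 24. Shares were less precise in genes with few counts, and transcripts at an estimated 0 were most frequent in COM, the shallowest group, where depth and group cannot be told apart.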
